A study of Homo sapiens with 8 samples.

Results

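The matrix metalloproteases (MMPs), the ADAMTS proteases and the tissue inhibitors of metalloproteases (TIMPs) were followed in the human neuroblastoma line SK-N-SH after gain or partial loss of ZMYND8, a chromatin reader protein. The members were all protein-coding genes whose symbol is MMP, ADAMTS or TIMP followed by a number, with an A or B allowed after an MMP number. This rule was met by 46 of the 60659 genes counted, and they comprised 23 MMP genes, 19 ADAMTS genes and 4 TIMP genes. MMP23A has a symbol of this form but is annotated as a pseudogene and was left out.

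Total RNA without ribosomal RNA was sequenced in 4 groups of 2 libraries, which the labels call biological replicates. Every group was treated for 24 h with 10 μM ATRA (all-trans retinoic acid), an inducer of neuronal differentiation. The parental group was SK-N-SH cells with doxycycline (Dox), and the ZMYND8 OE group was cells with Dox that carry FLAG-tagged ZMYND8 under a Dox-inducible promoter. The KD control and ZMYND8 KD groups formed a separate experiment, in which ZMYND8 was knocked down. For knockdown the study's methods describe short hairpin RNA delivered by lentivirus, with selection doses given for SH-SY5Y and neural stem cells and none for SK-N-SH. The overexpressing cells were a drug-selected pool and the labels name parental cells, not cells with an empty vector, as their control, so the vector and its selection cannot be told apart from ZMYND8 itself. Each experiment was compared with its own control, and no group without ATRA was analysed here.

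MMPs are zinc-dependent endopeptidases that are made as inactive precursors and, once activated, cleave collagens, gelatins, proteoglycans, growth factors and cell-surface proteins. ADAMTS proteases are secreted relatives with thrombospondin repeats, which cut proteoglycans such as versican and aggrecan, trim procollagens, or act on von Willebrand factor and on the fibrillin network. TIMPs bind the active site of these enzymes, and TIMP2 also helps MMP14 to activate the precursor of MMP2 at the cell surface. In neural tissue these families remodel the matrix around migrating cells, growing neurites and synapses.

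Library totals ranged from 38316523 to 56256979 counts on genes. ZMYND8 itself had 3089 and 3612 counts in parental cells and 220691 and 182849 in ZMYND8 OE libraries, and it had 3128 and 3374 in the KD control against 1641 and 1640 in the ZMYND8 KD libraries. Its level thus followed the labels in both experiments, with log2 fold changes of 5.86 (standard error, SE, 0.06) and -0.94 (SE 0.06). The labels call the cells epithelial neuroblastoma cells. The neuroblast markers HAND2, GATA2 and ISL1 were present at 952 counts or more in all libraries, and the catecholamine enzyme TH had 0 to 5 counts. Of the epithelial markers, the keratins KRT18 and KRT8 had 6454 to 21192 and 878 to 3954 counts and KRT19 had 13 to 79, while EPCAM and CDH1 had 22 to 56 and 0 to 12.

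Levels of different genes were compared per length, as RPKM (counts scaled to library size and exon length) with 1 normalization over the 8 libraries. In all 4 groups TIMP2 had the highest RPKM and MMP2, the gelatinase that degrades basement membrane collagen, the next. TIMP2 reached 307 ± 9.92 RPKM (SD, n = 2) in parental cells and 174 ± 8.0 in ZMYND8 OE, and MMP2 reached 184 ± 4.96 and 102 ± 0.389. In the KD experiment TIMP2 was at 273 ± 8.54 in the control and 269 ± 7.64 after knockdown, and MMP2 at 131 ± 1.58 and 139 ± 3.73. The remaining places differed between groups. TIMP3 and MMP14 followed in parental cells (91.1 ± 0.133 and 67.8 ± 4.15 RPKM), TIMP3 and the protease ADAMTS9 in ZMYND8 OE (43.4 ± 6.30 and 37.3 ± 1.67), and ADAMTS9 and TIMP1 in both groups of the KD experiment. Between 20 and 23 members reached 1 RPKM in a library.

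The summed RPKM of all members was 805 and 835 in parental cells but 507 in each ZMYND8 OE library. It was 587 and 585 in KD control and 584 in each ZMYND8 KD library. The overexpressing libraries thus held less of these transcripts than the parental ones, and the knockdown libraries lay within 4 RPKM of their controls. MMPs and TIMPs were both lower with overexpression (MMPs 306 and 317 against 169 and 171, TIMPs 442 and 456 against 257 and 250 RPKM), while the ADAMTS sum was higher (57.4 and 61.3 against 81.1 and 86.3 RPKM). The near-equal totals of the KD experiment held shifts in opposite directions. From KD control to ZMYND8 KD, the MMP sum went from 172.1 and 173.2 to 182 and 188.7 RPKM. The ADAMTS sum went from 97.1 and 104.8 to 82.3 and 87.2, and the TIMP sum from 317.6 and 306.7 to 319.5 and 307.6. The ratio of TIMP to MMP transcripts per length was 1.44 in each parental library and 1.52 and 1.46 with overexpression. It was 1.85 and 1.77 in KD control and 1.76 and 1.63 after knockdown. No test was run on these sums, whose replicates differed far less than the groups of the overexpression experiment except in the TIMP to MMP ratio.

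**Figure D1:**
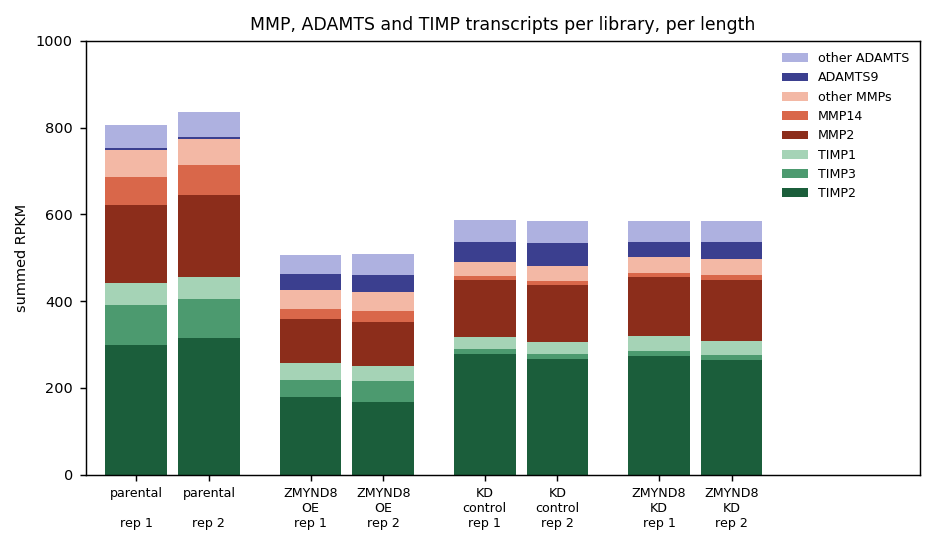
Summed RPKM of the 46 members in each of the 8 libraries (y axis, RPKM; each bar is 1 library), stacked from TIMP2 at the bottom to the ADAMTS genes other than ADAMTS9 at the top. The parental bars reach 805 and 835 and the ZMYND8 OE bars 507 and 507, and the ADAMTS9 band is thin in parental cells only.

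Of the 46 members 36 had enough counts to be tested between ZMYND8 OE and parental cells, and 17 of them were called, 47.2% of those tested. A call required an adjusted p below 0.05 in edgeR's quasi-likelihood test, a change of 1 or more on the log2 scale in either direction, and more than 20 normalized counts on average. Over all 20835 genes tested, 18.6% were called. The called members were higher for 8 genes (22.2%, against 11.8% of all genes called higher) and lower for 9 (25%, against 6.84% called lower). Without the fold and count criteria, 35 of the 36 had an adjusted p below 0.05, 16 of them higher and 19 lower. The exception was MMP10, a stromelysin (adjusted p = 0.112). Most genes passed this looser threshold, 12663 of all 20835 tested. The median log2 fold change was -0.41 over the tested members and 0.03 over all genes. Below, genes are said to rise or fall only where the adjusted p was below 0.05.

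In the knockdown experiment 33 members could be tested and 1 was called, ADAMTS18, which was higher. That is 3.03% of the members tested, where 1.96% of all 19789 genes were called, 1.36% higher and 0.596% lower. An adjusted p below 0.05 was reached by 14 members, 9 of them higher and 5 lower, mostly with small changes. Of all 19789 genes, 4799 reached the same adjusted threshold. An unadjusted p below 0.05 was reached by 18 members (13 higher and 5 lower). DESeq2 also called 1 member higher and 0 lower, and the median log2 fold change was 0.09 over the members and -0.01 over all genes. The effects of overexpression and knockdown differed for 30 of the 39 members that could be compared (76.9%), where they differed for 49.0% of all 22619 genes. This was a test of the difference itself over the 8 libraries at an adjusted p below 0.05.

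**Figure D2:**
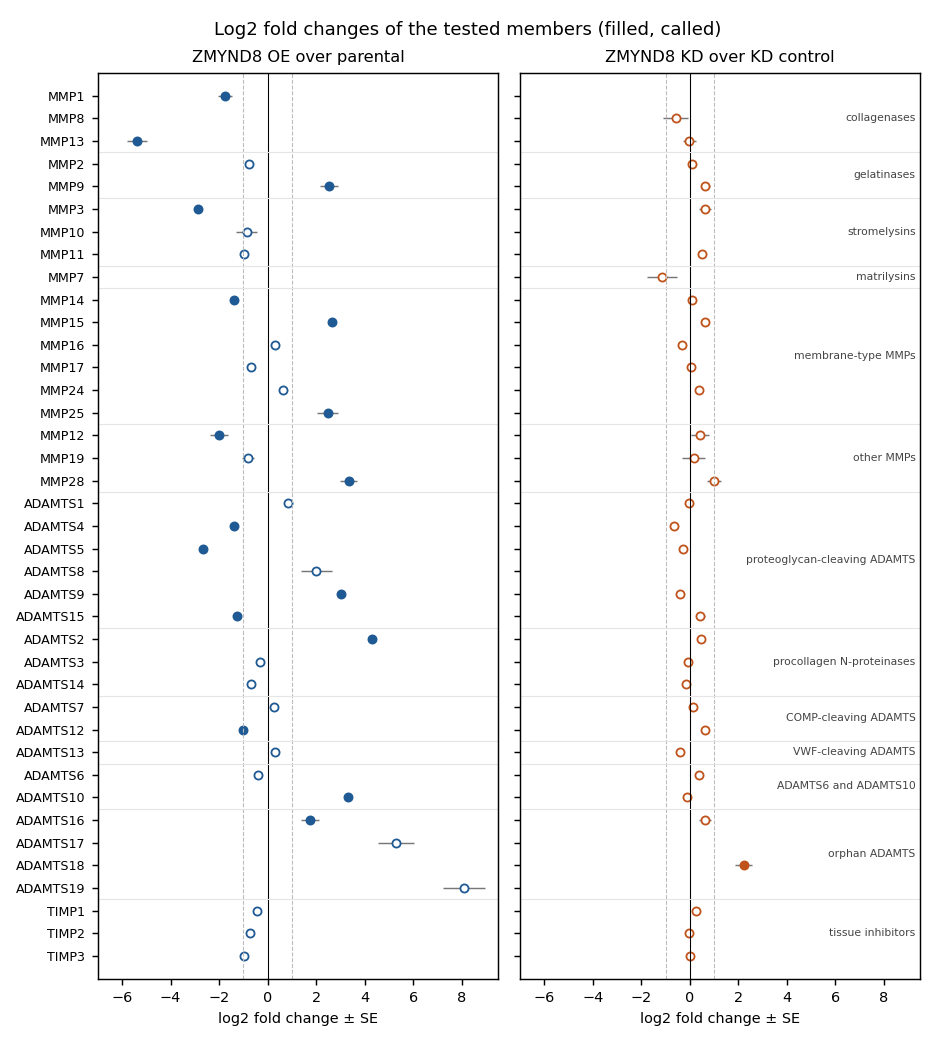
Log2 fold changes (x axis) with standard errors (bars) for the 39 members tested in at least 1 comparison (y axis, grouped by role), ZMYND8 OE over parental on the left and ZMYND8 KD over KD control on the right. Filled points are called members and dashed lines mark a log2 fold change of 1 in either direction. The left panel has 17 filled points on both sides and the right panel 1, ADAMTS18.

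The 250 bases before the start of a few of these genes are shown because members differ widely in the base makeup of this stretch. The RefSeq promoter table (GRCh38.p14) held 27 of the 46 symbols, with 28 entries. It held none for ADAMTS1, ADAMTS4, ADAMTS5, ADAMTS8, ADAMTS9, ADAMTS15, ADAMTS16, MMP1, MMP2, MMP3, MMP9, MMP12, MMP13, MMP16, MMP17, MMP19, MMP25, MMP28 and TIMP2. Shown 5′ to 3′ on the strand of the gene are ADAMTS2 (chr5:179345462-179345711, minus strand) and MMP15 (chr16:58025504-58025753, plus strand), which rose with overexpression, and MMP14 (chr14:22836335-22836584, plus strand), which fell. ADAMTS18 (chr16:77435035-77435284, minus strand) is the member called after knockdown, and MMP10 (chr11:102780629-102780878, minus strand) lies in the MMP cluster on chromosome 11. Capitals mark the GC box GGGCGG and the TATA box TATAAA on either strand, where runs of capitals can hold overlapping GC boxes.
ADAMTS2: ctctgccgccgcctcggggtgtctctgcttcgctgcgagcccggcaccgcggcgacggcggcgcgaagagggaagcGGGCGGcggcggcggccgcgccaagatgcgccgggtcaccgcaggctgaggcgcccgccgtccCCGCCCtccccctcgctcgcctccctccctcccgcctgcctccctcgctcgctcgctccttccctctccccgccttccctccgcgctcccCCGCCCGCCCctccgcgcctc
MMP15: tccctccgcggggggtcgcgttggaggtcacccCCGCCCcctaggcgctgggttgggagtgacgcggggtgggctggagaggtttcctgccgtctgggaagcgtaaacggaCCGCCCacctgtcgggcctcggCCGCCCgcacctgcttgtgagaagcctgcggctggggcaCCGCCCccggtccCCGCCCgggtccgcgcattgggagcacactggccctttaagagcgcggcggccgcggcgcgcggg
MMP14: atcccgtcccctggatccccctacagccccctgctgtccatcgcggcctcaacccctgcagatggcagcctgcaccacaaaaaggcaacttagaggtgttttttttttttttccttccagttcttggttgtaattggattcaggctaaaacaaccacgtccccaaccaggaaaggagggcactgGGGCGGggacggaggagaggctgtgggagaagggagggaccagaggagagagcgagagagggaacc
ADAMTS18: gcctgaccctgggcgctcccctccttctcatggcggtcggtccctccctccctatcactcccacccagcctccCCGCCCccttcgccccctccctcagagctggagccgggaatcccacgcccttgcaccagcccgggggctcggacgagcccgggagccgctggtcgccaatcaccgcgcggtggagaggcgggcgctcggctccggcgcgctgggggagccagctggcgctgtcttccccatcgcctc
MMP10: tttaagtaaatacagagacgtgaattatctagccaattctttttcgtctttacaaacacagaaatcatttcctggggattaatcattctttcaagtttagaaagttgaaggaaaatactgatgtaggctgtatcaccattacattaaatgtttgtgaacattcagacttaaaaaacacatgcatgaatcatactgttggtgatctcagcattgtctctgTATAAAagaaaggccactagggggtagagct

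A share of 42.6% of all 35116 entries held a GC box in this window and 10.7% a TATA box. The stretch before ADAMTS2 held 40 CpG dinucleotides and 4 GC boxes, and that before MMP15 held 31 and 5. The stretch before MMP14 held 7 CpG dinucleotides and 1 GC box, and that before ADAMTS18 held 24 and 1, where the median over all entries was 11 CpG dinucleotides. MMP10 was the opposite, with 2 CpG dinucleotides, no GC box and 1 TATA box. The 5 entries of the chromosome 11 cluster (MMP7, MMP8, MMP10, MMP20 and MMP27) held 0 to 3 CpG dinucleotides, and 29.3% of all entries held 3 or fewer. The direct repeat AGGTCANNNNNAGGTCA, a form of the retinoic acid response element, was in none of the 28 entries and in 1 of all 35116. The AP-1 motif TGAGTCA was in the MMP7 entry and in 4.2% of all entries. Both strands were searched for each motif, GC boxes may overlap each other, and a match describes letters only.

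Of the collagenases 2 of 2 tested and of the stromelysins 1 of 3 tested were called lower in ZMYND8 OE cells, where 6.84% of all genes were. MMP13 (chr11:102942995-102955732, minus strand), which cleaves fibrillar collagen, had 86 and 84 counts in parental cells and 3 and 1 in ZMYND8 OE libraries. The level in ZMYND8 OE was 0.0214 of the parental one, with a 95% interval of 0.00577 to 0.0558 that covers counting error only (log2 fold change -5.38, SE 0.42, adjusted p = 1.22e-06). MMP1 (chr11:102789919-102798160, minus strand), the interstitial collagenase, had 45 and 56 against 19 and 12 counts, a log2 fold change of -1.75 (SE 0.30, adjusted p = 0.000460). Both collagenases were thus called lower with overexpression. MMP8, the neutrophil collagenase, had 2 and 2 against 0 and 0 counts, too few to test.

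MMP3 (chr11:102835801-102843609, minus strand), a stromelysin of broad specificity that also activates other MMP precursors, was the most abundant gene of the cluster in parental cells. It had 2088 and 2300 counts there and 366 and 251 in ZMYND8 OE, so its level fell to 0.126 of the parental one (log2 fold change -2.89, SE 0.09, adjusted p = 1.49e-09). MMP10 had 12 and 22 against 11 and 8 counts, and its change of -0.87 (SE 0.44) missed the threshold. MMP11, a stromelysin that furin activates inside the cell, fell from 1236 and 1636 to 768 and 721 counts (log2 fold change -0.98, SE 0.08, adjusted p = 2.65e-06), which is under the fold that a call required. All of the exonic 31-base sequences of MMP11 recur on contigs of the reference other than the primary chromosomes, so part of its reads may be uncounted.

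MMP12 (chr11:102862736-102874982, minus strand), the elastase of macrophages, had 87 and 111 counts in parental and 41 and 11 in ZMYND8 OE libraries. Its log2 fold change was -1.99 (SE 0.36, adjusted p = 0.000779), and the overexpressing libraries differed from each other more than the parental ones did. Without ZMYND8 OE replicate 1 it was -3.04, and that of MMP13 was -6.15. The leukocyte marker PTPRC had 0 to 2 counts in all libraries, and the summed level of the 6 leukocyte markers was 1.27 to 1.76 CPM (counts scaled to library size) in parental and 0.650 to 0.736 CPM in ZMYND8 OE libraries. Of these markers 2 could be tested and 1, CSF1R, was called lower, and the part of such cells in the MMP12 value was not tested.

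These genes lie side by side. MMP7, MMP20, MMP27, MMP8, MMP10, MMP1, MMP3, MMP12 and MMP13 follow each other, all on the minus strand, within 435 kb of chromosome 11 (102520508 to 102955732). The 4 called members of this cluster, MMP1, MMP3, MMP12 and MMP13, were all lower with overexpression. The matrilysin MMP7 had 8 and 5 against 3 and 1 counts, MMP20, which matures tooth enamel, had 0 to 2 and MMP27 had none, so nothing can be said of the low end of the cluster at this depth. After knockdown the 5 genes of the cluster that could be tested (MMP3, MMP7, MMP8, MMP12 and MMP13) had adjusted p-values above 0.05. MMP3 had 48 and 54 counts in KD control and 91 and 62 in ZMYND8 KD (log2 fold change 0.63, SE 0.24, adjusted p = 0.0854, and 0.00725 without ZMYND8 KD replicate 2), and MMP13 had 33 and 39 against 35 and 33 (-0.03, SE 0.26, adjusted p = 0.95).

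The effects on the cluster differed between the experiments for the 4 called genes. The difference of log2 fold changes, overexpression minus knockdown, was -5.36 (SE 0.52, adjusted p = 6.73e-07) for MMP13 and -3.53 (SE 0.24, adjusted p = 9.97e-09) for MMP3. It was -3.86 (SE 1.25, adjusted p = 0.0190) for MMP1 and -2.41 (SE 0.57, adjusted p = 0.00270) for MMP12. The value of MMP1 rests on 0 to 4 counts per library in the KD experiment. The control groups of the experiments started from different levels, since the log2 ratio of KD control over parental was -5.64 for MMP3 and -6.82 for MMP1, with 1 and 0 counts of MMP1 in KD control. The experiments had no common control, so their handling cannot be told apart from this difference.

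**Figure D3:**
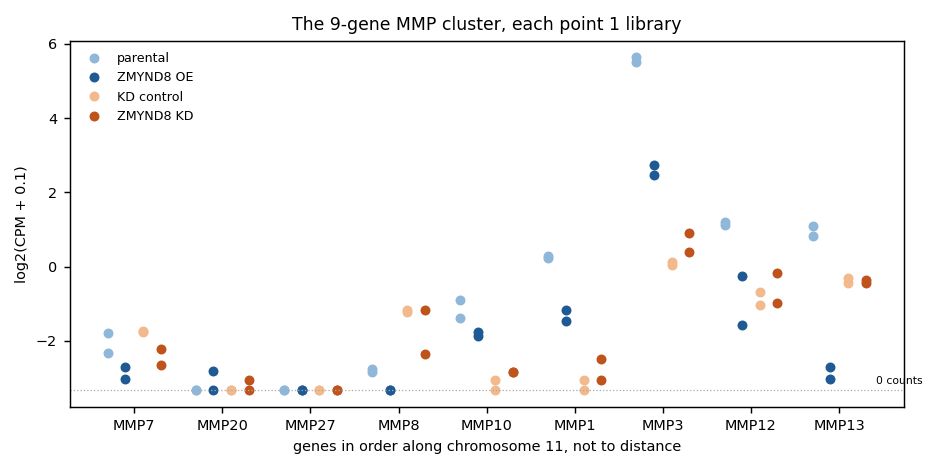
Level of the 9 MMP genes of the chromosome 11 cluster in order of position (x axis, not to distance), as log2(CPM + 0.1) (y axis); each point is 1 library and the colours are the 4 groups. MMP3, MMP12, MMP1 and MMP13 lie lower in ZMYND8 OE than in parental libraries, while the points of the KD experiment lie close together for MMP13 and the left part of the cluster is near 0 counts.

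The gelatinases moved in opposite directions with overexpression. MMP2 (chr16:55389700-55506691, plus strand) had 35769 and 44590 counts in parental and 26704 and 22255 in ZMYND8 OE libraries. It fell to 0.555 of the parental level (log2 fold change -0.76, SE 0.05, adjusted p = 2.33e-07), less than a call required. MMP9 (chr20:46008908-46016561, plus strand), a gelatinase made by many invasive and inflammatory cells, had 11 and 6 counts in parental and 62 and 42 in ZMYND8 OE libraries and was called higher (log2 fold change 2.53, SE 0.38, adjusted p = 0.000199). Without parental replicate 1 the value was 3.15.

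MMP9 stayed scarce beside MMP2, at 0.433 ± 0.0616 RPKM in ZMYND8 OE against 102 ± 0.389 for MMP2, so the sum of the 2 gelatinases followed MMP2. It shares 18.4% of its exon bases with SLC12A5-AS1 on the other strand, a gene named here because of this overlap after its values were seen. SLC12A5-AS1 had 27 and 30 counts in parental and 235 and 241 in ZMYND8 OE libraries (log2 fold change 3.02, adjusted p = 4.85e-07). The strand setting of the counting is not given in the sources used here, and the part of reads from the other strand was not tested. In the KD experiment MMP9 had 153 and 115 counts in the control and 183 and 218 after knockdown (log2 fold change 0.63, SE 0.19, adjusted p = 0.0341), while SLC12A5-AS1 had 74 and 56 against 63 and 46. MMP2 had 32247 and 33256 against 33044 and 34209 counts (0.09, SE 0.05, adjusted p = 0.255). The knockdown change of MMP9 missed the threshold with DESeq2 (adjusted p = 0.0538), with all 8 libraries in 1 fit (0.0539), without the low-count filter (0.127), without KD control replicate 2 (0.241) and without ZMYND8 KD replicate 2 (0.0764).

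All 6 membrane-type MMPs, which sit on the cell surface through a transmembrane helix or a lipid anchor, could be tested with overexpression. Of these 2 were called higher and 1 lower, where 11.8% of all genes were called higher and 6.84% lower. MMP14 (chr14:22836560-22849027, plus strand), the main activator of the MMP2 precursor, had 12173 and 15931 counts in parental and 5967 and 5071 in ZMYND8 OE libraries. It fell to 0.359 of the parental level (log2 fold change -1.39, SE 0.05, adjusted p = 6.46e-09). MMP2 and MMP14 together made up 80.2% and 81.4% of the MMP transcripts per length in parental cells, and 74.6% and 74.2% in ZMYND8 OE. The enzyme, its activator and the inhibitor TIMP2 that joins them were thus all lower.

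MMP15 (chr16:58025754-58046901, plus strand), a close relative of MMP14, went the other way, with 260 and 305 counts in parental and 1902 and 1726 in ZMYND8 OE libraries. Its level was 5.86 times the parental one (log2 fold change 2.64, SE 0.08, adjusted p = 1.45e-09). MMP25 (chr16:3046561-3060726, plus strand), a lipid-anchored MMP known from leukocytes, had 3 and 15 against 59 and 45 counts (log2 fold change 2.48, SE 0.44, adjusted p = 0.000585). The parental libraries of MMP25 stood far apart from each other. Its value was 1.85 without parental replicate 1 and 3.87 without parental replicate 2, and 34.2% of its exon bases lie opposite MMP25-AS1, which rose by less (0.85, SE 0.16).

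The remaining membrane-type MMPs changed by less than a call required. MMP24, which is found mostly in the nervous system, rose from 1443 and 1726 to 2781 and 2341 counts (log2 fold change 0.65, SE 0.05), and MMP16 rose by 0.29 (SE 0.05). Of the exon bases of MMP24, 22.1% lie opposite MMP24OS and a gene without a symbol, and MMP24OS fell (-0.53, SE 0.06). MMP17, a lipid-anchored member, fell by 0.67 on the log2 scale (SE 0.08). After knockdown MMP15 rose from 517 and 515 to 791 and 743 counts (log2 fold change 0.62, SE 0.09, adjusted p = 0.000731) and MMP24 from 2979 and 3070 to 3909 and 3756 (0.39, SE 0.05, adjusted p = 0.000380). MMP16 fell from 6873 and 8706 to 5764 and 6141 counts (-0.34, SE 0.08, adjusted p = 0.0114). MMP14 had 1899 and 2451 against 2006 and 2420 counts (0.08, SE 0.10, adjusted p = 0.646).

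MMP15 and MMP24 therefore rose in both experiments, although ZMYND8 went up in one and down in the other. The rise of MMP15 was larger with overexpression, by 2.02 on the log2 scale (SE 0.12, adjusted p = 3.68e-09), and that of MMP24 by 0.25 (SE 0.07, adjusted p = 0.00977). MMP28 (chr17:35756249-35795707, minus strand), also called epilysin, was higher in both as well. It had 8 and 8 counts in parental and 73 and 94 in ZMYND8 OE libraries (log2 fold change 3.34, SE 0.36, adjusted p = 1.62e-05), and 21 and 25 in KD control against 42 and 47 in ZMYND8 KD (1.00, SE 0.27, adjusted p = 0.0235). The knockdown value fell just short of the fold criterion, and its adjusted p was 0.153 with DESeq2 and 0.127, 0.0917 and 0.0724 without KD control replicate 1, KD control replicate 2 or ZMYND8 KD replicate 2. Of the exonic 31-base sequences of MMP28, 95.1% recur on other contigs of the reference, so its counts can be a small part of its reads.

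Of the other MMPs, MMP19 fell with overexpression from 70 and 60 to 40 and 37 counts (log2 fold change -0.81, SE 0.26, adjusted p = 0.0213). MMP21 had 3 to 11 counts in the libraries of that experiment, MMP23B had 4 to 10 and MMP26 had 0 or 1, and none of them could be tested. In all 10 members were not tested with overexpression, with 0 to 11 counts per library, and 13 were not tested with knockdown, with 0 to 15.

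Among the ADAMTS genes the proteoglycan-cleaving group, the largest, showed the most calls in the overexpression experiment, 1 higher and 3 lower of 6 tested. Of all genes 11.8% were called higher and 6.84% lower. ADAMTS9 (chr3:64515654-64688000, minus strand), a versican-cleaving protease, had 2160 and 2682 counts in parental and 21485 and 18972 in ZMYND8 OE libraries. Its level was 7.63 times the parental one (log2 fold change 3.02, SE 0.06, adjusted p = 5.28e-11), and it became the member with the fourth highest RPKM. Its antisense neighbours rose with it, ADAMTS9-AS1 from 11 and 14 to 106 and 94 counts (2.95, SE 0.27) and ADAMTS9-AS2 from 31 and 37 to 249 and 221 (2.74, SE 0.18). Only 1.63% of the exon bases of ADAMTS9 lie opposite ADAMTS9-AS1.

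ADAMTS5 (chr21:26917922-26967088, minus strand), a main aggrecanase, had 4366 and 5193 counts in parental and 945 and 629 in ZMYND8 OE libraries. It fell to 0.148 of the parental level (log2 fold change -2.66, SE 0.08, adjusted p = 1.14e-09). ADAMTS4 (chr1:161184302-161199054, minus strand), the other main aggrecanase, had 1839 and 2642 against 958 and 786 counts (-1.40, SE 0.08, adjusted p = 1.43e-07). ADAMTS15 (chr11:130448974-130476641, plus strand), which cleaves versican and aggrecan, had 709 and 832 against 358 and 302 (-1.27, SE 0.09, adjusted p = 7.17e-07). These 3 enzymes were thus called lower while ADAMTS9 was called higher.

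Neighbouring genes of this group did not move together. ADAMTS1 lies 72.5 kb from ADAMTS5 on chromosome 21, and it rose from 1770 and 2324 to 4074 and 3553 counts (log2 fold change 0.86, SE 0.06, adjusted p = 4.72e-07) where ADAMTS5 fell. ADAMTS8 lies 20.4 kb from ADAMTS15 on chromosome 11, and it had 4 and 2 counts in parental and 17 and 9 in ZMYND8 OE libraries (2.01, SE 0.64, adjusted p = 0.0194), with a mean too low to be called. It also passed the count filter only through its ZMYND8 OE libraries. ADAMTS20, the closest relative of ADAMTS9, had 1 and 0 against 7 and 4 counts and was not tested.

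After knockdown 3 of the same group fell, none far enough for a call. ADAMTS9 went from 25923 and 31521 counts in KD control to 19413 and 22173 in ZMYND8 KD (log2 fold change -0.41, SE 0.08, adjusted p = 0.00379). ADAMTS4 went from 4458 and 4051 to 2671 and 2541 counts (-0.66, SE 0.07, adjusted p = 8.84e-05) and ADAMTS5 from 5859 and 6373 to 4909 and 4698 (-0.30, SE 0.05, adjusted p = 0.00175). Within each experiment ADAMTS9 thus changed in the direction of ZMYND8, up with overexpression and down with knockdown. The effects differed by 3.43 on the log2 scale (SE 0.11, adjusted p = 4.14e-12). Across the experiments ADAMTS9 did not follow ZMYND8. It averaged 538 CPM in KD control and 52.2 CPM in parental cells, where ZMYND8 stood at 60.1 and 61.8 against 73.3 and 71.5 CPM. ADAMTS4 and ADAMTS5 fell in both. ADAMTS15 had 133 and 131 against 200 and 145 counts (0.43, SE 0.19, adjusted p = 0.119, and 0.0115 without ZMYND8 KD replicate 2).

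The procollagen N-proteinases remove the amino-terminal propeptide of fibrillar procollagens. ADAMTS2 (chr5:179110853-179345461, minus strand), the main enzyme for type I procollagen, had 91 and 123 counts in parental and 2353 and 2015 in ZMYND8 OE libraries. Its level was 18.7 times the parental one (log2 fold change 4.31, SE 0.09, adjusted p = 8.23e-11), the largest increase among the called members. Its relatives fell, ADAMTS3 from 3022 and 3886 to 2962 and 2678 counts (-0.33, SE 0.06) and ADAMTS14 from 1511 and 1923 to 1153 and 1021 (-0.70, SE 0.07). In the parental libraries ADAMTS3 stood at 10.6 ± 0.519 RPKM and ADAMTS2 at 0.262 ± 0.0221, and in ZMYND8 OE they stood at 7.93 ± 0.487 and 4.91 ± 0.113. After knockdown none of the 3 reached an adjusted p below 0.05. ADAMTS2 had 238 and 343 counts in KD control and 350 and 416 in ZMYND8 KD (0.45, SE 0.16, adjusted p = 0.0659). It did reach the threshold with all 8 libraries in 1 fit (adjusted p = 0.0247), with the replicate block (0.00983), without KD control replicate 2 (0.0282) and without ZMYND8 KD replicate 1 (0.00613).

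ADAMTS12 (chr5:33523535-33892019, minus strand), which cleaves the cartilage protein COMP, changed in opposite directions in the experiments. It had 487 and 685 counts in parental and 370 and 225 in ZMYND8 OE libraries (log2 fold change -1.03, SE 0.14, adjusted p = 0.000117). It had 1722 and 1792 counts in KD control and 2674 and 2570 in ZMYND8 KD (0.63, SE 0.06, adjusted p = 3.51e-05). The difference of the effects was -1.66 (SE 0.14, adjusted p = 1.90e-07). The overexpression value lies at the fold criterion and was no longer called with a correction for gene length (-0.95), without parental replicate 2 (-0.92) or without ZMYND8 OE replicate 2 (-0.83). The other COMP-cleaving member, ADAMTS7, rose by 0.27 (SE 0.07) with overexpression, and 39.0% of its exonic 31-base sequences recur elsewhere on the primary chromosomes.

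ADAMTS10 and ADAMTS6 are paralogs that act on fibrillin microfibrils. ADAMTS10 (chr19:8580240-8610735, minus strand) had 43 and 70 counts in parental and 583 and 565 in ZMYND8 OE libraries, 9.44 times the parental level (log2 fold change 3.31, SE 0.17, adjusted p = 3.85e-08). ADAMTS6 fell from 662 and 807 to 581 and 561 counts (-0.40, SE 0.10, adjusted p = 0.00463). After knockdown ADAMTS6 rose from 622 and 651 to 798 and 794 counts (0.37, SE 0.08, adjusted p = 0.00861), and ADAMTS10 had 177 and 191 against 163 and 160 (-0.14, SE 0.15, adjusted p = 0.542). ADAMTS13, the protease of von Willebrand factor, rose by 0.30 (SE 0.09) with overexpression and fell by 0.43 on the log2 scale (SE 0.12) with knockdown.

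The orphan ADAMTS genes, whose substrates are poorly known, were scarce in parental cells, and the 3 that could be tested rose with overexpression. ADAMTS17 and ADAMTS19, at 0 or 1 count in parental cells, passed the count filter only through their ZMYND8 OE libraries. The filter thus fixed their direction in advance. ADAMTS16 (chr5:5140330-5320304, plus strand) had 27 and 12 against 71 and 67 counts and was called (log2 fold change 1.76, SE 0.37, adjusted p = 0.00208), with values of 2.59 without parental replicate 1 and 1.16 without parental replicate 2. ADAMTS19, a gene of heart valve development, had 0 and 0 counts in parental and 38 and 31 in ZMYND8 OE libraries, at least 10.4-fold higher when set against 3 counts per parental library (adjusted p = 2.75e-05). ADAMTS17 had 1 and 0 against 27 and 23 counts, a ratio of 45.5 with a 95% counting interval of 7.80 to 1832 (adjusted p = 0.000128). The means of ADAMTS17 and ADAMTS19 were too low for a call.

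ADAMTS18 (chr16:77247813-77435034, minus strand), a gene of eye development, was the call of the knockdown experiment. It had 8 and 10 counts in KD control and 46 and 36 in ZMYND8 KD libraries (log2 fold change 2.22, SE 0.36, adjusted p = 0.00123). It had 0 and 0 counts in parental and 7 and 10 in ZMYND8 OE libraries, too few to test there but at least 2.62-fold higher when set against 3 counts per parental library. Without ZMYND8 KD replicate 1 the log2 fold change was 2.03 and the mean count fell under the minimum for a call. The test of the difference of the effects gave an adjusted p of 0.0537.

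**Figure D4:**
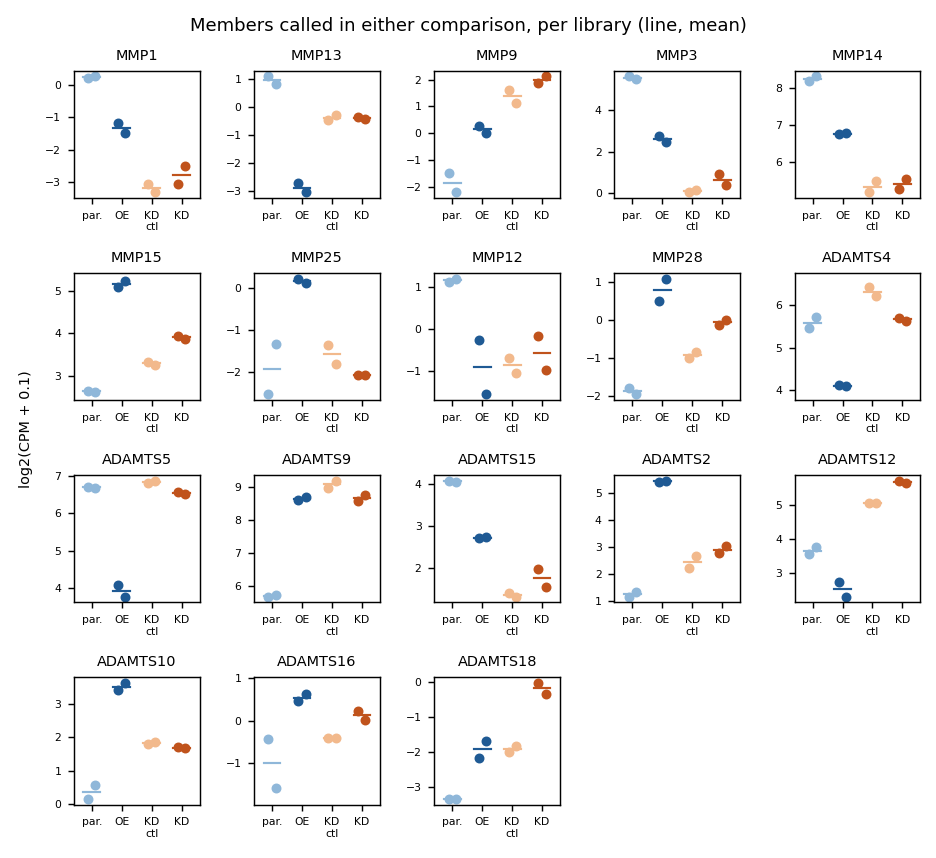
Level of the 18 members called in either comparison, as log2(CPM + 0.1) (y axis, its range set per panel) in the parental (par.), ZMYND8 OE (OE), KD control (KD ctl) and ZMYND8 KD (KD) libraries; each point is 1 library and each line the mean of 2. ADAMTS2, ADAMTS9, ADAMTS10 and MMP15 lie higher and MMP3, MMP13, MMP14 and ADAMTS5 lower in ZMYND8 OE than in parental libraries.

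No TIMP was called in either experiment, yet the 3 that were tested all fell with overexpression. TIMP2 (chr17:78852977-78925387, minus strand) had 71114 and 89329 counts in parental and 56366 and 43782 in ZMYND8 OE libraries (log2 fold change -0.73, SE 0.05, adjusted p = 5.75e-07). TIMP3 (chr22:32801705-32863041, plus strand), which binds the matrix and inhibits ADAMTS4 and ADAMTS5 as well as MMPs, had 17652 and 21138 against 9964 and 10149 counts (-0.98, SE 0.08, adjusted p = 2.61e-06). TIMP1 (chrX:47582408-47586789, plus strand), a weak inhibitor of membrane-type MMPs, had 3087 and 3766 against 3072 and 2245 counts (-0.42, SE 0.06, adjusted p = 0.000160). The levels of these 3 did not overlap between the groups, in a comparison where 12663 of all 20835 genes had an adjusted p below 0.05. How many of all genes did not overlap was not counted. Without ZMYND8 OE replicate 2 the value of TIMP3 was -1.14, which would be called. TIMP4 had 0 or 1 count in each of the 8 libraries and was not tested.

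After knockdown TIMP1 rose from 2152 and 2206 to 2580 and 2388 counts (log2 fold change 0.24, SE 0.06, adjusted p = 0.0163), which missed the threshold without KD control replicate 1 (0.0638), KD control replicate 2 (0.121) or ZMYND8 KD replicate 1 (0.105) and without the low-count filter (0.0606). TIMP2 had 81703 and 81996 against 79888 and 76477 counts (-0.02, SE 0.06, adjusted p = 0.860), and TIMP3 had 2443 and 3035 against 2511 and 2825 (0.01, SE 0.08, adjusted p = 0.931). The effects of overexpression and knockdown differed for all 3, by -0.66 (SE 0.09) for TIMP1, -0.72 (SE 0.08) for TIMP2 and -1.0 (SE 0.13) for TIMP3. Genes for TIMP1, TIMP3 and TIMP4 lie within the synapsin genes SYN1, SYN3 and SYN2, on the other strand. The synapsins, which coat synaptic vesicles, were called higher with overexpression, SYN1 from 17 and 13 to 345 and 266 counts (4.28, SE 0.22), SYN2 from 17 and 26 to 658 and 590 (4.81, SE 0.17) and SYN3 from 4 and 7 to 139 and 133 (4.56, SE 0.30). The TIMPs nested within SYN1 and SYN3 fell while their host genes rose.

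Of the members tested in both experiments (30), 13 reached an adjusted p below 0.05 in both. The direction was the same for 6 of them, ADAMTS4 and ADAMTS5, which fell, and MMP9, MMP15, MMP24 and MMP28, which rose. It was opposite for 7, ADAMTS6, ADAMTS9, ADAMTS12, ADAMTS13, MMP11, MMP16 and TIMP1. The knockdown changes of MMP9, MMP28 and TIMP1 missed the threshold in the settings given above. Over all 18504 genes tested in both, 3529 reached this threshold in both and 61.7% of those had opposite directions, against 53.8% of the 13 members.

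The levels of the control groups differed between the experiments for many members, which bears on how the effects compare. The log2 ratio of KD control over parental was -3.03 for TIMP3, -2.89 for MMP14 and -2.75 for ADAMTS15, and it was 3.73 for MMP9 and 3.37 for ADAMTS9. In each of these the level of KD control lay beyond that of ZMYND8 OE, on the same side of parental cells. Other members had KD control and ZMYND8 OE on opposite sides of parental cells. The ratio was 1.39 for ADAMTS12 and 0.74 for ADAMTS4, which fell with overexpression. It was -1.12 for ADAMTS7 and -1.02 for ADAMTS13, which rose. The members of each kind were not counted. ADAMTS9 stood at 4.88 ± 0.118 RPKM in parental, 37.3 ± 1.67 in ZMYND8 OE, 50.4 ± 5.25 in KD control and 37.7 ± 3.63 in ZMYND8 KD. These ratios are a description without a test, since the experiment and its handling cannot be told apart.

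Markers of cell states moved along with overexpression, in a comparison where 11.8% of all genes were called higher and 6.84% lower. Of 8 fibroblast markers 6 were called lower, and their summed level was 7635 to 8560 CPM in parental and 2243 to 2361 CPM in ZMYND8 OE libraries, with none at 0 counts. Of 8 markers of the mesenchymal state of neuroblastoma cells 4 were called lower and 1, TWIST1, higher, with sums of 6870 to 7073 and 2636 to 2881 CPM. Of 9 adrenergic markers 5 were called higher, with sums of 335 to 337 and 1087 to 1128 CPM. Of 5 epithelial markers 3 were called lower, with sums of 469 to 473 and 160 to 215 CPM. In the knockdown experiment 1 fibroblast marker, DCN, was called higher (sums 2965 to 2986 and 3771 to 3936 CPM), and edgeR called no adrenergic or mesenchymal marker, where 4 of 7 and 7 of 8 tested had an unadjusted p below 0.05. The part of these states in the values of the proteases was not tested, and in bulk RNA fewer cells of a type and less RNA per cell cannot be told apart.

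Endothelial, glial and leukocyte markers summed to under 4 CPM in every library. CDH5 had 0 to 2 counts and SOX10 0 or 1. Their sums in parental and ZMYND8 OE libraries were 3.34 to 3.73 and 2.99 to 3.48 CPM for the 5 endothelial markers, of which 2 were called lower and 1 higher, and 1.68 to 1.97 and 3.54 to 3.62 CPM for the 5 glial markers, of which 1 was called higher. In the KD experiment PECAM1 was called lower and CSF1R higher.

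Of the genes that control MMP activity, 5 of 21 tested were called higher with overexpression and 8 lower. Of all genes 11.8% were called higher and 6.84% lower. After knockdown edgeR called none of 19, where 11 had an unadjusted p below 0.05. LRP2, an endocytic receptor that takes up protease complexes, had 0 and 0 counts in parental and 393 and 308 in ZMYND8 OE libraries. A2M, a plasma inhibitor that traps proteases, rose from 2 and 7 to 81 and 62 counts (log2 fold change 3.91, SE 0.39, adjusted p = 8.85e-06). The proprotein convertases PCSK5 and PCSK6, which activate membrane-type MMPs among other precursors, rose by 3.18 (SE 0.29) and 3.16 (SE 0.44), from 18 and 11 and from 10 and 3 counts. The more abundant convertases FURIN and PCSK7, named here after their values were seen, fell, FURIN from 6374 and 8045 to 5022 and 3596 counts (-0.79, SE 0.07) and PCSK7 from 3959 and 5035 to 4455 and 3490 (-0.22, SE 0.05). The plasminogen activators, also named after their values were seen, fell, PLAT from 138144 and 174061 to 24572 and 17602 counts (-2.94, SE 0.07) and PLAU from 34132 and 45857 to 8321 and 5294 (-2.61, SE 0.10). A2M, LRP2, PCSK5 and PCSK6 thus rose from low levels, while FURIN, PCSK7, PLAT and PLAU fell from higher ones.

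Of the substrates of ADAMTS proteases 4 of 11 tested were called higher with overexpression and 5 lower, where 11.8% and 6.84% of all genes were. After knockdown edgeR called none of 9, where 4 had an unadjusted p below 0.05. NCAN, the brain proteoglycan neurocan, rose from 29 and 64 to 1812 and 1723 counts (log2 fold change 5.21, SE 0.17), and RELN, the neuronal migration protein reelin that ADAMTS proteases cleave, from 19 and 15 to 303 and 281 (4.05, SE 0.22). VWF fell from 47 and 43 to 3 and 5 counts (-3.50, SE 0.43), and COMP rose from 336 and 385 to 2128 and 1698 (2.36, SE 0.07). The more abundant substrates called lower, named here after their values were seen, were the proteoglycan VCAN, from 49583 and 59379 to 20398 and 15032 counts (-1.67, SE 0.06), and the microfibril proteins LTBP1 (-2.28, SE 0.05) and FBN1 (-1.84, SE 0.05). The proteases that cut these substrates moved in both directions in the same libraries, and no relation between the lists was tested.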

How the data were processed

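The authors deposited raw counts per gene, whole numbers without normalization. Per the study's methods, Trim_Galore trimmed the reads, those under a Phred score of 25 were discarded, Hisat2 placed the remainder on GRCh38, and featureCounts assigned them to genes of GENCODE release 28. The strand setting is not given in the sources used here, so reads of genes that overlap on opposite strands cannot be told apart. Of the table's lines 3, which belong to 1 split gene, were left out, and biotypes came from GENCODE release 44, which held 60462 of the 60659 genes. The totals of 38316523 to 56256979 counts set the precision, and intervals and floors cover counting error only.

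Samples were grouped by their labels. Each comparison used its 4 libraries, filterByExpr, TMM and the two-sided quasi-likelihood test of edgeR (version 4.0.16, under R 4.3.3 with limma 3.58.1) with Benjamini-Hochberg adjustment over all genes. Standard errors are the absolute log2 fold change divided by the square root of F. The difference of effects was tested as a contrast over the 8 libraries. With 2 libraries per group, p-values measure the spread between these libraries. No pair of replicates agreed within counting noise (chi-square per degree of freedom 6.05 to 8.86). The named members are those called in either comparison plus MMP2, MMP9, MMP14 and the TIMPs, and other genes come from lists of pathways and markers (called genes, at most 4 a list). The members and lists were chosen with earlier results of these data known. The fits were checked on simulated counts. Alternatives were RLE, DESeq2 (1.42.0), no filter, all 8 libraries in 1 fit, the replicate block, a gene length correction, other thresholds and leaving out each library. Recurrence of 31-base sequences was counted in the hg38 reference.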

Additional observations from a re-analysis of the deposited data

How the results depend on the processing

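Calls that rest on few counts are the least firm. With a mean count above 100 in place of 20, 4 members were called higher and 6 lower with overexpression and 0 were called higher after knockdown. Without a fold criterion the members called were 13 higher and 19 lower with overexpression, and 9 higher and 5 lower after knockdown. With no filter on low counts, with a correction for gene length, or with that correction and the replicate block, 2 members were called higher after knockdown, because MMP28 joined ADAMTS18 at log2 fold changes of 1.00, 1.02 and 1.02. Leaving out each library in turn gave 8 to 9 members higher and 9 to 10 lower with overexpression, 1 higher and 0 lower after knockdown, and 28 to 31 whose effects differed. The member called after knockdown was MMP28 and not ADAMTS18 without ZMYND8 KD replicate 1. RLE normalization, DESeq2 and the fit of all 8 libraries together each called 8 members higher and 9 lower with overexpression and 1 higher and 0 lower after knockdown. With the replicate number as a block the counts were 8 and 9, then 1 and 0, and 31 members whose effects differed. The numbers are shared but do not mark pairs in the labels, and the deviations of same-numbered libraries correlated at 0.0581 and 0.139 in the 2 experiments. No log2 fold change of a named member changed sign among the results called. The cause of these shifts was not tested beyond the settings themselves.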

Other observations

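Related families outside the list changed as well with overexpression. Of the ADAM proteases, membrane-bound relatives that shed cell-surface proteins, 3 of 11 tested were called higher and 4 lower, where 11.8% and 6.84% of all genes were. After knockdown edgeR called none of 11, where 3 had an unadjusted p below 0.05. ADAM33 fell from 235 and 263 to 41 and 29 counts (edgeR log2 fold change -2.88, SE 0.18, adjusted p = 2.64e-07) and ADAM19 from 62614 and 82890 to 16818 and 13158 (-2.32, SE 0.06, adjusted p = 3.18e-10). The brain-enriched ADAM22, a synaptic receptor without protease activity, rose from 3447 and 4247 to 14816 and 12197 counts (1.77, SE 0.05), and ADAM11, also without protease activity, from 110 and 164 to 379 and 383 (1.45, SE 0.16). The 3 called higher were ADAM11, ADAM22 and ADAM23, which lack a working protease site, and the 4 called lower were ADAM8, ADAM9, ADAM19 and ADAM33, which carry one. ADAM10, ADAM12, ADAM15 and ADAM17 were tested and not called (-0.35, 0.12, -0.52 and -0.19), and no relation to protease activity was tested. ADAM8, ADAM9, ADAM10, ADAM12, ADAM15, ADAM17 and ADAM23 were named after their values were seen.

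The ADAMTS-like proteins share the thrombospondin repeats of ADAMTS proteases but lack the protease domain. THSD4, which binds fibrillin, fell in both experiments, from 12027 and 15329 to 2308 and 1486 counts with overexpression (-2.91, SE 0.09, adjusted p = 1.55e-09) and from 10283 and 10201 to 4889 and 4457 after knockdown (-1.08, SE 0.06, adjusted p = 1.46e-06). ADAMTSL2 rose with overexpression from 47 and 35 to 91 and 98 counts (1.15, SE 0.27, adjusted p = 0.00402) and fell after knockdown from 61 and 108 to 33 and 41 (-1.13, adjusted p = 0.0160). ADAMTSL1 fell (-2.05, SE 0.06) and PAPLN rose (1.14, SE 0.19) with overexpression. Of the other metalloproteases, PAPPA2 rose from 10 and 8 to 368 and 346 counts (5.25, SE 0.23) while its paralog PAPPA fell from 6913 and 8838 to 1442 and 842 (-2.84, SE 0.12), and TLL2 rose (2.03, SE 0.20) while TLL1 fell (-1.87, SE 0.19). PAPPA and PAPPA2 both cleave binding proteins of insulin-like growth factors, and TLL1 and TLL2 are relatives of the procollagen C-proteinase BMP1.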
